A study of Mus musculus with 4 samples.

Results

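Iron handling genes of whole mouse kidney were followed in a chronic glomerulonephritis (GN) model made by injecting apoferritin, the protein shell of ferritin. The genes were 10 named members, which cover import (Tfrc, Slc11a2), storage (Fth1, Ftl1), heme breakdown (Hmox1), export (Slc40a1), ferroxidases (Heph, Cp) and the iron regulatory proteins (Aco1, Ireb2). All probe sets that the platform annotation gives to 1 of these genes alone were taken, which were 25 of 22690 probe sets and represented 9 of the 10 members. Ftl1 appeared only on probe sets that the annotation shares with other genes.

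The study used male C57BL/6 mice, labelled 17 weeks old, with 1 array for each of 4 groups. GN+Captopril and GN+Water mice received 10 mg of horse spleen apoferritin on 5 days and 100 µg of Salmonella minnesota lipopolysaccharide on 3 days of each week for 6 weeks. Saline+Captopril and Saline+Water mice received 0.15 M NaCl instead. Captopril, an inhibitor of angiotensin converting enzyme, was given in the drinking water at 100 mg/kg/day, and kidneys were taken after 9 weeks. Lipopolysaccharide was given only together with apoferritin, so these agents cannot be told apart here. The labels describe 6 mice per group without saying whether an array carried pooled RNA, and they do not give the iron content of the injected protein.

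Kidney cells take up iron bound to transferrin through the transferrin receptor, or as ferrous iron through the transporter DMT1, and store it inside ferritin. Ferroportin releases iron from the cell, and the multicopper ferroxidases hephaestin and ceruloplasmin oxidise it for loading onto transferrin. When iron is scarce, the iron regulatory proteins bind ferritin and ferroportin mRNA and limit their translation, and they protect the transferrin receptor mRNA from decay.

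Each group had a single array, so a difference between groups has no replicate check, no error and no test. All values are deposited log2 probe set values, so a difference of 1 is a 2-fold difference, and a gene was called higher or lower at 1.5-fold, which is 0.58 on the log2 scale. The probe set of highest mean stood for a gene with several, and levels were compared between arrays but not between probe sets. The 9 members passed an expression filter that 8207 of 12394 genes passed, at a mean of 6.27. Heph passed it through the arrays on which it was higher, since it lay at 5.41 on Saline+Water, below that limit.

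A pair of arrays stood apart. The array labelled GN+Water went against its male label, with the inactive X transcript Xist at 8.97, against 5.02 to 5.21 on the other arrays, and the Y-linked Eif2s3y at 3.43, against 8.02 to 8.29. On this array 6 of 8 androgen-responsive kidney genes were at least 1.5-fold lower than on Saline+Captopril. The Saline+Water array had a spike-in median of 10.8, against 7.46 to 7.89 on the others. GN+Captopril and Saline+Captopril had neither feature, and their comparison is therefore given first. All 8 proximal tubule and all 8 distal nephron and collecting duct markers lay above the negative-control level on every array. So did all 9 measured hepatocyte and all 5 measured adrenal markers, so this level does not tell tissues apart.

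Cp had the largest range over the arrays. Tfrc was the import gene whose probe sets all lay lower on each GN array than on Saline+Captopril. A stretch upstream of Cp and a stretch across a start of Tfrc are therefore shown. They are RefSeq sequences of build GRCm38.p6, on the plus strand and written 5′ to 3′. The first covers the 250 bases before the first listed start of Cp, chr3:19956804-19957053. The second is a 30-base stretch across the first listed start of Tfrc, chr16:32608882-32608911, with capitals marking ACGTG, the core bound by hypoxia-inducible factors. In human TFRC an upstream element of this kind is known to respond to hypoxia. The letters marked here lie across the first listed start and upstream of a later one.
Cp: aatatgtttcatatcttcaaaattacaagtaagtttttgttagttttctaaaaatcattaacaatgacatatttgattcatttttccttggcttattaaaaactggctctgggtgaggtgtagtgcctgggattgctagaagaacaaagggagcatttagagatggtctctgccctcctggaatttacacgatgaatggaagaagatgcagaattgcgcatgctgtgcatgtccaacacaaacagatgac
Tfrc: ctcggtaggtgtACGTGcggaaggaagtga

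Windows from 250 bases before to 50 bases after a start were listed for 6 of the 10 members, with 9 windows in all. ACGTG, searched on both strands, was present in the 2 overlapping Tfrc windows, where it is the same site, and in none of the other 7. It was present in 19.62% of all 32851 windows. The letters TGACNNNGC, the antioxidant response element core (12.39% of windows), and TTCNNNGAA, the STAT element (8.30%), were in none of the 9. A match is a description of letters, not evidence of binding.

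The ferroxidases and the exporter came highest on the array labelled GN+Water. Cp encodes ceruloplasmin, the copper-carrying ferroxidase of plasma, also made by kidney and macrophages. Its level was 9.95 on GN+Captopril and 11.2 on the array labelled GN+Water, against 9.30 on Saline+Captopril and 8.78 on Saline+Water. Both GN arrays lay above both saline arrays, as they did for 16.1% of the 8207 genes, among them Slc40a1. On GN+Captopril relative to Saline+Captopril, Cp was 1.57-fold higher, and it was the only member called in this pair. Averaged over its 7 probe sets, Cp was 0.58 higher on the log2 scale, just under the 1.5-fold threshold.

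In that pair 1 of 9 members was called higher and 0 lower, where 1.85% of all genes were higher and 0.207% lower. Cp was larger in size of difference than 98.3% of the 8207 genes there. The median difference of the 9 members was −0.03, against 0.00 over all genes. By probe set, 5 of 25 were at least 1.5-fold higher, all of them of Cp, against 1.41% of all probe sets with a single gene.

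All 7 Cp probe sets were higher on GN+Captopril than on Saline+Captopril, by 0.06 to 0.86 on the log2 scale. Those probe sets target 1 gene and are not independent. The weakest, also the dimmest, was at 6.42 on GN+Captopril and 6.96 on the array labelled GN+Water, against 6.36 on Saline+Captopril and 6.42 on Saline+Water. The strongest was at 8.50 on GN+Captopril and 9.76 on the array labelled GN+Water, against 7.63 on Saline+Captopril and 8.31 on Saline+Water. In this probe set Saline+Water exceeded Saline+Captopril, the reverse of the probe set that represents the gene.

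The array labelled GN+Water exceeded Saline+Captopril by 1.93 for Cp, a 3.80-fold difference, and exceeded Saline+Water by 2.44, or 5.43-fold. Without probe sets marked as shared between transcripts or genes, the second value was 1.45. In the first of these comparisons all 7 Cp probe sets were at least 1.5-fold higher, and in the second 6 of 7 were. Over all probe sets with a single gene, 4.71% and 15.6% were. The comparisons with Saline+Captopril share that array, and their differences are not independent of each other. By its brightest probe set, Cp was at least 1.5-fold higher on both GN arrays than on both saline arrays. That pattern was found in 1.23% of the 8207 genes and in no other member. On GN+Captopril, 5 of 7 Cp probe sets were at least 1.5-fold above Saline+Captopril and 5 of 7 above Saline+Water. They were not the same 5, so some Cp probe sets did not show the pattern.

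**Figure D1:**
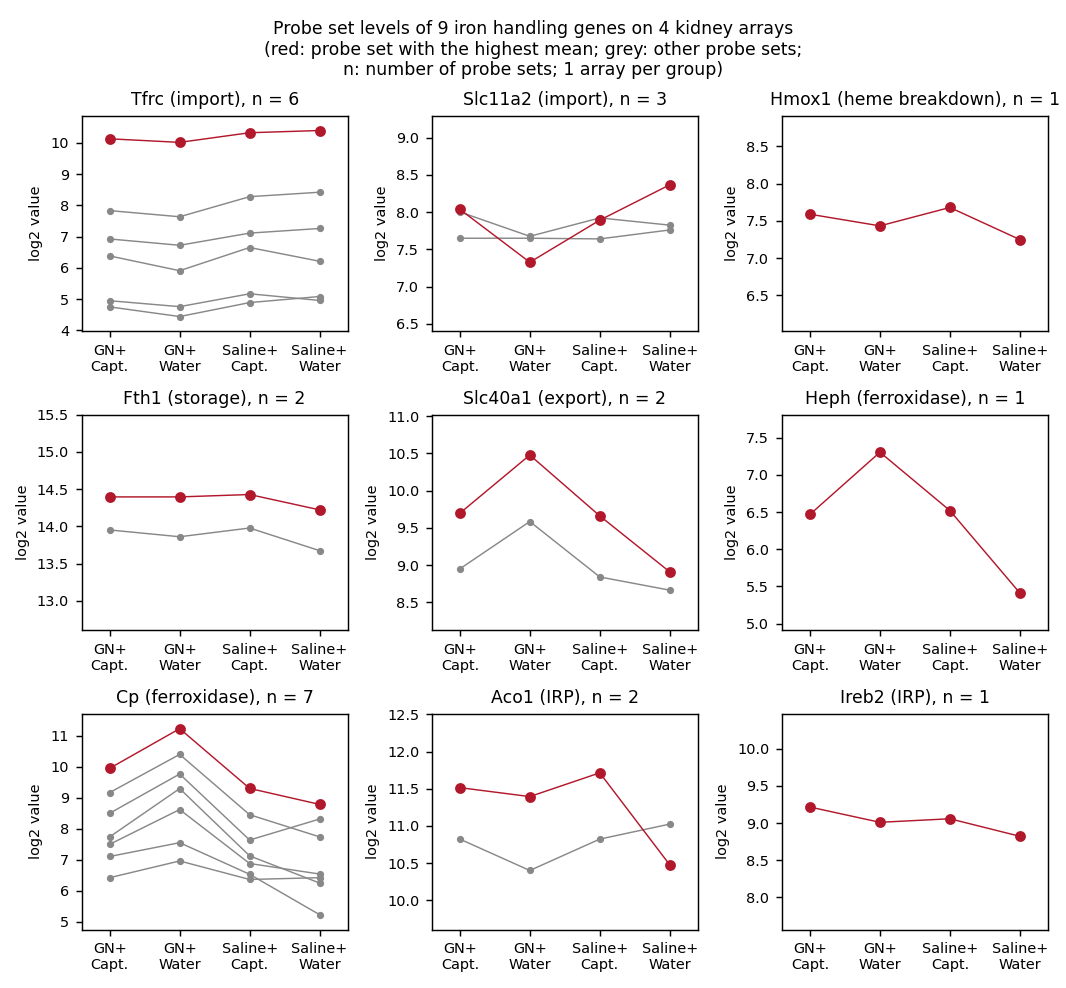
Log2 level (vertical axis) of every probe set of the 9 measured members on the 4 arrays (horizontal axis, 1 array per group), with lines joining the values of a probe set. Cp, Slc40a1 and Heph peak on the array labelled GN+Water, Fth1 and Ireb2 span at most 0.39 over the arrays, and the Aco1 probe sets run opposite ways on Saline+Water.

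Slc40a1 encodes ferroportin, the cellular iron exporter, which is abundant in macrophages that recycle iron. It stood at 9.70 on GN+Captopril and 10.5 on the array labelled GN+Water, against 9.66 on Saline+Captopril and 8.91 on Saline+Water. GN+Captopril and Saline+Captopril were close, at a difference of 0.04, or 1.03-fold. On the array labelled GN+Water it was 1.76-fold higher than on Saline+Captopril and 2.97-fold higher than on Saline+Water. The second Slc40a1 probe set was higher by 0.74 and 0.92 in those comparisons, and by 0.11 on GN+Captopril relative to Saline+Captopril.

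Heph encodes hephaestin, the membrane-bound ferroxidase that works beside ferroportin, and had a single probe set. Its level was 6.47 on GN+Captopril and 7.30 on the array labelled GN+Water, against 6.52 on Saline+Captopril and 5.41 on Saline+Water. The 2 captopril arrays differed by −0.05, while the array labelled GN+Water was 1.72-fold above Saline+Captopril and 3.71-fold above Saline+Water. The level on Saline+Water was above the negative-control limit of 4.81 on that array by less than 1 log2 unit, so this larger fold rests on a dim value.

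Macrophage markers were higher on both GN arrays, as Cp was, while Slc40a1 and Heph differed little in the captopril pair. Of 12 markers, 10 were at least 1.5-fold higher on GN+Captopril than on Saline+Captopril and 12 on the array labelled GN+Water, and all 12 lay above the negative-control level on every array. Their summed linear level was 9498 on GN+Captopril and 15245 on the array labelled GN+Water, against 3289 on Saline+Captopril and 3064 on Saline+Water. For Saline+Captopril relative to Saline+Water, 2 of the 12 markers were called higher and 1 lower. In that pair Heph and Slc40a1 were higher by 1.11 and 0.75. The second Slc40a1 probe set was higher by 0.18, and Heph was dim on Saline+Water, at 5.41. The part of macrophages in the Cp, Slc40a1 and Heph values was not tested, and in whole kidney more cells of a type and more RNA per cell cannot be told apart.

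Hepatocyte markers are listed because liver is the main source of plasma ceruloplasmin, and their part in the Cp values was not tested. Of 9 measured genes, 0 were called higher and 0 lower on GN+Captopril relative to Saline+Captopril. On the array labelled GN+Water 0 were higher and 4 lower than on Saline+Captopril, and 1 was higher and 3 lower than on Saline+Water. Of 5 adipocyte markers, 3 were called higher in the captopril pair, as were 2 of 5 adrenal markers. Of 6 measured erythroid markers, 0 were called in either direction there.

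**Figure D2:**
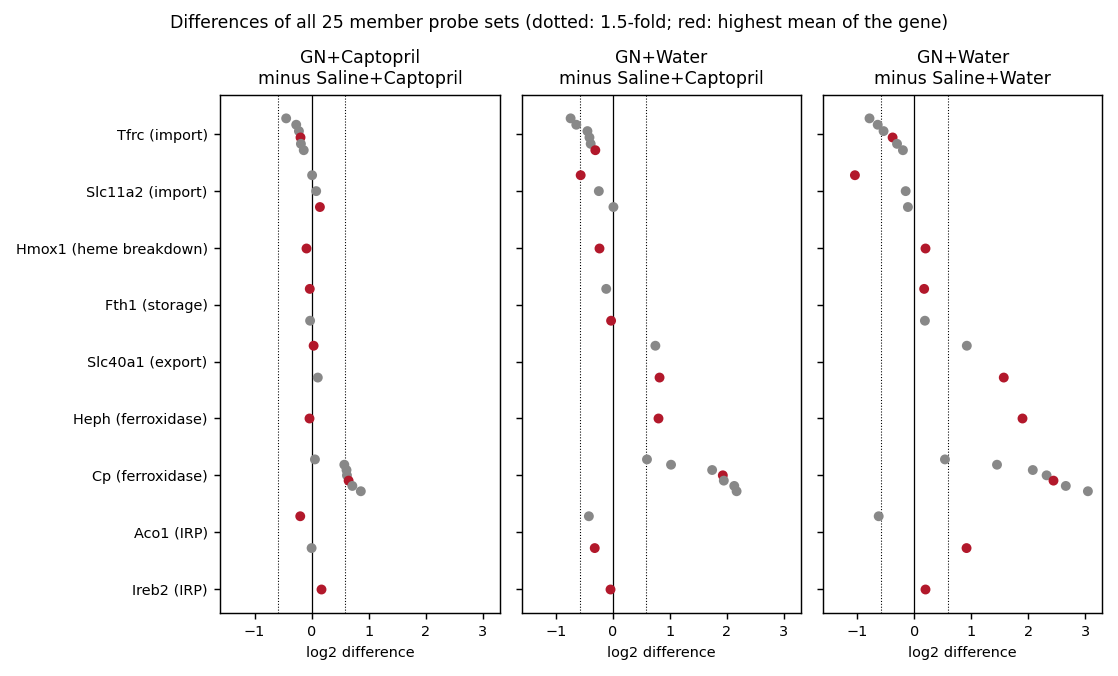
Log2 differences (horizontal axes) of all 25 member probe sets by gene, with dotted lines at 1.5-fold and the probe set of the highest mean in red. In GN+Captopril minus Saline+Captopril the 5 points past the line are all Cp; with the array labelled GN+Water, Cp, Slc40a1 and Heph lie to the right and all 6 Tfrc probe sets lie left of 0.

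The import genes gave no call in the captopril pair. Tfrc encodes transferrin receptor 1, which brings iron-loaded transferrin into the cell. It was at 10.1 on GN+Captopril and 10.0 on the array labelled GN+Water, against 10.3 on Saline+Captopril and 10.4 on Saline+Water. Both GN arrays lay below both saline arrays, a pattern seen in 14.7% of the 8207 genes, and the difference was under 1.5-fold in each pair.

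All 6 Tfrc probe sets, which include 3 control probe sets along the transcript, were lower on GN+Captopril than on Saline+Captopril, by 0.14 to 0.45. On the array labelled GN+Water all 6 were lower than on Saline+Captopril, by 0.31 to 0.74, and 2 of them passed 1.5-fold, as 2.24% of all probe sets with a single gene did. Relative to Saline+Water all 6 were again lower there, by 0.20 to 0.78. For GN+Captopril and Saline+Water 5 of 6 were lower, and the remaining one was higher, by 0.17. The 5′ and middle control probe sets averaged 4.96 and 4.79, under the expression filter.

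Slc11a2 encodes DMT1, the ferrous iron transporter. Its brightest probe set was at 8.04 on GN+Captopril and 7.33 on the array labelled GN+Water, against 7.89 on Saline+Captopril and 8.37 on Saline+Water. The array labelled GN+Water was 2.06-fold below Saline+Water and 1.48-fold below Saline+Captopril. The other 2 probe sets spanned at most 0.33 over the 4 arrays, so the larger difference rests on 1 probe set of 3.

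Storage and heme breakdown genes showed little difference. Fth1, the ferritin heavy chain with the ferroxidase activity of the ferritin shell, was at 14.4 on GN+Captopril and on the array labelled GN+Water, against 14.4 on Saline+Captopril and 14.2 on Saline+Water. Its probe sets spanned 0.21 and 0.30 over the arrays. The ferritin light chain Ftl1 could not be measured on its own. The 2 probe sets that list it with the pseudogene Ftl1-ps2 lay between 13.0 and 13.5 on all 4 arrays. A further probe set that also lists 3 miRNA genes lay between 9.28 and 9.31.

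Hmox1, the inducible heme oxygenase that frees iron from heme, was at 7.59 on GN+Captopril and 7.43 on the array labelled GN+Water, against 7.68 on Saline+Captopril and 7.25 on Saline+Water. GN and saline arrays overlapped. The largest of these differences, 0.43, was between the 2 saline arrays.

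The iron regulatory protein genes gave no call in the captopril pair. Aco1 encodes cytosolic aconitase, which becomes the RNA-binding protein IRP1 when it lacks its iron-sulfur cluster. Its brighter probe set was at 11.5 on GN+Captopril and 11.4 on the array labelled GN+Water, against 11.7 on Saline+Captopril and 10.5 on Saline+Water. The other probe set was at 10.8 on GN+Captopril and 10.4 on the array labelled GN+Water, against 10.8 on Saline+Captopril and 11.0 on Saline+Water. Relative to Saline+Water these probe sets put the array labelled GN+Water 0.92 higher and 0.62 lower, so they give no common direction. Ireb2, which encodes IRP2, was at 9.22 on GN+Captopril and 9.01 on the array labelled GN+Water, against 9.06 on Saline+Captopril and 8.82 on Saline+Water. Its GN and saline arrays overlapped.

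**Figure D3:**
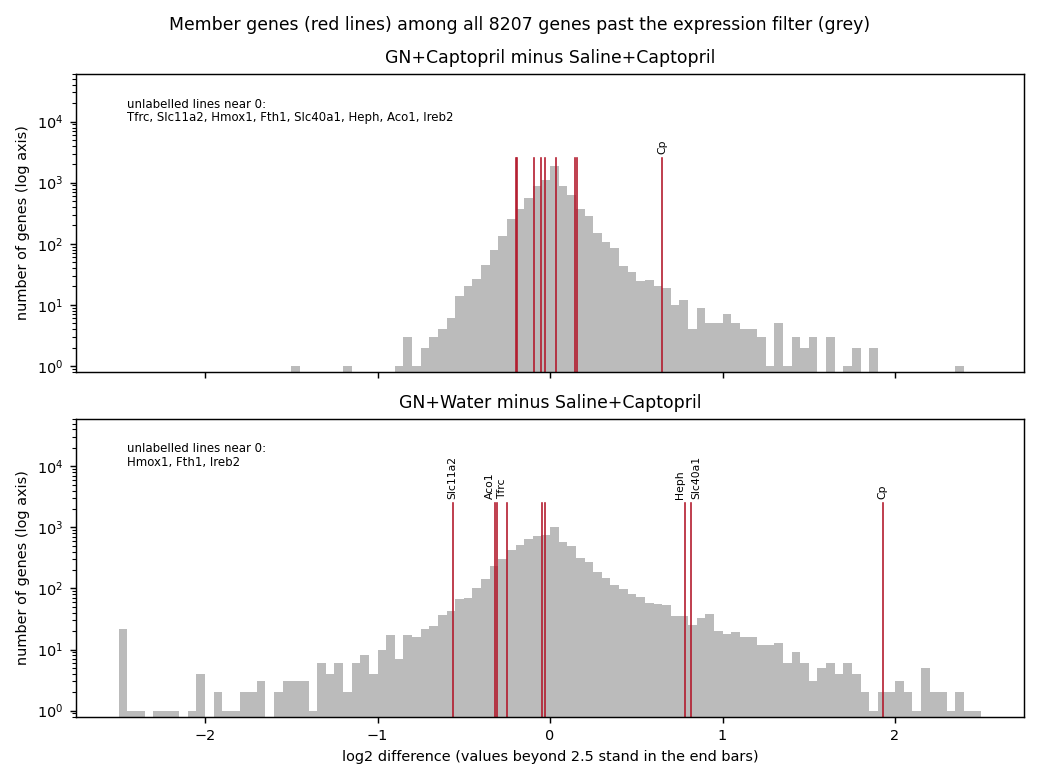
Log2 differences of all 8207 genes past the expression filter (grey bars, number of genes on a log axis) with the 9 members as red lines. In GN+Captopril minus Saline+Captopril 8 members lie within 0.20 of 0 and Cp lies at 0.65; in the array labelled GN+Water minus Saline+Captopril, Cp lies at 1.93, and Slc40a1 and Heph at 0.82 and 0.78.

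Counts over the members depended on the arrays compared. With the array labelled GN+Water set against Saline+Captopril, 3 of 9 members (Cp, Slc40a1 and Heph) were called higher and 0 lower, where 6.31% of all genes were higher and 3.03% lower. Set against Saline+Water, 4 members were higher and 1 lower, where 19.6% of all genes were higher and 15.3% lower. In that last pair the share of genes called was large throughout the array, and Aco1 and Slc11a2 were among the calls made by 1 of their probe sets. GN+Captopril against Saline+Water gave 4 members higher and 0 lower, where 17.2% of genes were higher and 10.2% lower. The calls of Aco1 and Slc40a1 in this pair rest on 1 probe set each. The other Aco1 probe set differed by −0.20 and the second Slc40a1 probe set by 0.29. Heph is among the members called higher in each of these pairs. It passed the expression filter through the arrays on which it was higher, so its call is not independent of that filter. This limit applies to every count here and below that includes Heph.

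The captopril comparison within GN asks whether the drug changes these genes in diseased kidneys, and it needs the array with sex markers that contradict its label. On GN+Captopril relative to the array labelled GN+Water, Cp was 2.43-fold lower, Heph 1.78-fold and Slc40a1 1.72-fold lower, and Slc11a2 was 1.64-fold higher. Thus 1 of 9 members was higher and 3 lower, where 3.7% of all genes were higher and 4.52% lower. All 7 Cp probe sets and both Slc40a1 probe sets were lower, and all 6 Tfrc probe sets were higher, by 0.11 to 0.47. The other Slc11a2 probe sets differed by 0.33 and 0.00, so the Slc11a2 call rests on 1 probe set of 3. In this pair 9 of 12 macrophage markers were at least 1.5-fold lower and 7 of 8 androgen-responsive genes higher, and their part in the values was not tested.

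In saline mice the captopril comparison rests on the Saline+Water array with its high spike-ins. On Saline+Captopril relative to Saline+Water, Aco1 was 2.36-fold, Heph 2.15-fold and Slc40a1 1.68-fold higher. The other Aco1 probe set differed by −0.20, and the second Slc40a1 probe set was 1.13-fold higher, so averaging probe sets left 1 of these 3 calls, Heph. No member was called lower, and 15.6% of all genes were higher and 10.2% lower. Cp was 1.43-fold higher by its brightest probe set, with 5 of 7 probe sets higher and 2 lower, and differed by −0.68 without shared probe sets. Tfrc differed by −0.07, with 4 of 6 probe sets lower.

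The GN difference was set side by side for captopril and water. As a signed log2 difference, it was lower on captopril than on water by at least 1.5-fold for 4 of 9 members and higher for 1, where 18.9% of all genes were lower and 16.0% higher. The 1 member was Slc11a2, at 0.15 on captopril and −1.04 on water by its brightest probe set. Its other probe sets gave 0.08 and −0.15, and 0.01 and −0.11. Aco1 was among the 4, at −0.20 on captopril and 0.92 on water by its brighter probe set. Its other probe set went the opposite way, at 0.00 and −0.62. For Cp the GN difference was 0.65 on captopril and 2.44 on water, for Heph −0.05 and 1.89, and for Slc40a1 0.04 and 1.57. The water difference in each case holds both arrays that stood apart.

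By the root mean square difference of centred log2 values over the 4 arrays, the genes most like Cp were Lum (0.11), Pla2g7 (0.14) and Apoe (0.16). Lum encodes the matrix proteoglycan lumican and was at 6.36 on GN+Captopril and 7.76 on the array labelled GN+Water, against 5.97 on Saline+Captopril and 5.48 on Saline+Water. Pla2g7 encodes a secreted phospholipase and Apoe a lipid carrier made by macrophages. Those most like Heph were Etnk1 (0.04), Matn2 (0.06) and Tuba1a (0.06). Lum on both saline arrays and Matn2 on Saline+Water, at 5.27, lay below the filter limit of 6.27. Both passed it through the arrays on which they were higher. With 4 points, this likeness is a description of these arrays.

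Other genes of iron and heme handling were taken by role from a list of 72, of which 60 had a probe set of their own and 49 passed the filter. On GN+Captopril relative to Saline+Captopril, 0 of 49 genes passed 1.5-fold in either direction, and the median was 0.00. On the array labelled GN+Water relative to Saline+Captopril, 3 were higher (Steap1, Hp, Flvcr2) and 3 lower (Timd2, Cpox, Nqo1), with a median of −0.06. As given above, 6.31% of all genes were higher and 3.03% lower there, and 1.85% and 0.207% in the captopril pair.

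Timd2, which in mice encodes a cell surface receptor for H-ferritin, had the largest difference of the list. It was at 10.2 on GN+Captopril and 7.95 on the array labelled GN+Water, against 10.2 on Saline+Captopril and 10.3 on Saline+Water. It was therefore lower on 1 array only, the one with discordant sex markers, by 4.97-fold relative to Saline+Water. GN+Captopril and Saline+Captopril differed by 0.00. Their deposited values were identical, as they were for some other genes of the list, and the reason was not examined. Some member probe sets also had identical values on a pair of arrays. Examples are the brighter Fth1 probe set on both GN arrays and the dimmer Aco1 probe set on both captopril arrays.

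On the array labelled GN+Water relative to Saline+Water, 9 of the 49 were higher and 7 lower, where 19.6% of all genes were higher and 15.3% lower. Flvcr2, of the heme transporter family, was 2.63-fold, the hemoglobin-binding plasma protein gene Hp 2.26-fold, the metalloreductase family gene Steap1 1.95-fold and the hemochromatosis gene Hfe 1.85-fold higher. Hp lay at 6.23 on Saline+Water, below the filter limit of 6.27, and passed through the arrays on which it was higher. Its call is not independent of that filter, and this applies to each list count that includes Hp. After Timd2, the lowest were Bmp6, the bone morphogenetic protein that induces hepcidin, at 1.74-fold lower, and Alas1, the first enzyme of heme synthesis, at 1.72-fold lower. Hamp2, a mouse hepcidin gene, was 1.63-fold lower. With averaged probe sets 6 list genes were higher and 4 lower in this pair.

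For captopril in GN, 1 of 49 was higher, Timd2 at 4.89-fold, and 2 were lower, Steap1 at 1.60-fold and Flvcr2 at 1.54-fold, where 3.7% of all genes were higher and 4.52% lower. For captopril in saline mice, 7 of 49 were higher and 3 lower, where 15.6% of all genes were higher and 10.2% lower. The highest were the quinone reductase gene Nqo1 at 1.97-fold, the heme synthesis gene Cpox at 1.79-fold, the mitochondrial iron importer gene Slc25a37 at 1.75-fold and Flvcr2 at 1.65-fold. The lower genes were Hamp2 at 1.61-fold, Keap1, which restrains NRF2, at 1.55-fold and Alas1 at 1.53-fold. Each of these lower genes has 2 probe sets. With averaged probe sets 5 list genes were higher and 0 lower in this pair, so none of these lower calls was kept.

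**Figure D4:**
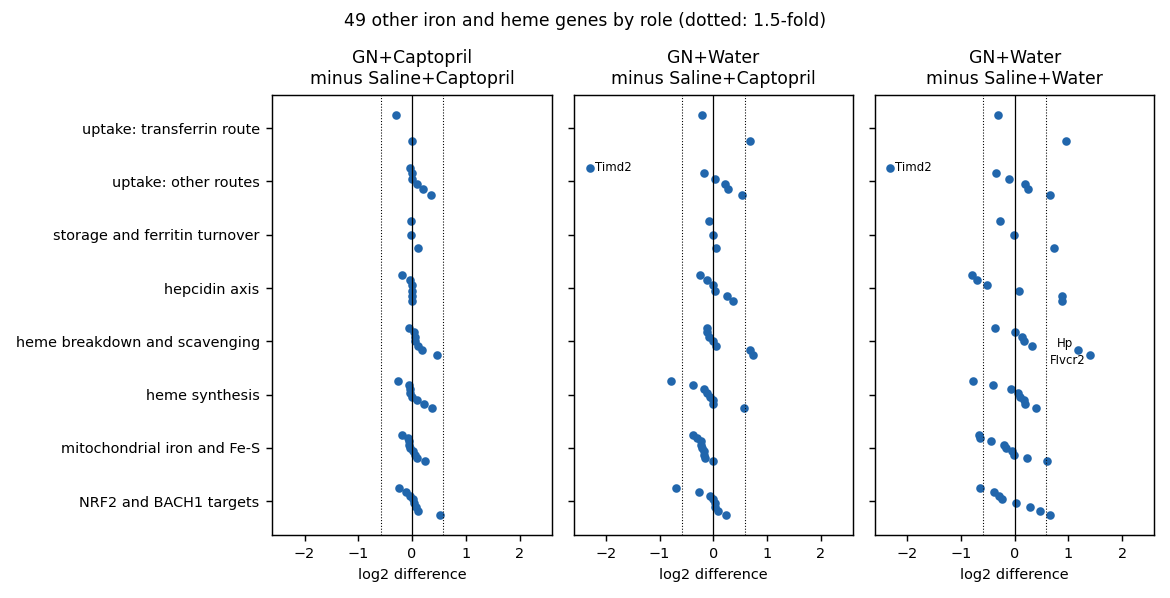
Log2 differences (horizontal axes) of 49 other iron and heme genes, grouped by role on the vertical axis, with dotted lines at 1.5-fold and names at 2-fold or more. None passes the line in GN+Captopril minus Saline+Captopril; Timd2 stands apart, at −2.29 and −2.31, where the array labelled GN+Water is used.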

How the data were processed

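Whole kidney RNA was hybridised to 4 Affymetrix arrays, 1 per group. The authors deposited 1 value for each of 22690 probe sets per array, read as log2 from their range. GCOS and RMA are named in the submitters' processing notes, without version or role; for background correction, normalisation and build, no source used here gives a method. Values were used as deposited. Names came from the platform annotation, updated by Entrez ID with a gene table of assembly GRCm38.p6: 20393 had 1 symbol, 691 several and 1606 none.

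The expression filter was the 40th percentile of probe set means. Background was the 90th percentile of 27 negative controls per array. With 0 residual degrees of freedom no test was made. The counting of calls was checked on simulated data with known changes. Alternatives were median centring, quantile and cyclic loess normalisation (limma 3.58.1 in R 4.3.3), averaged or unshared probe sets, other filters, a 2-fold threshold and exchanged arrays. Named list genes were the 4 highest and 4 lowest past 1.5-fold in each comparison; further list genes, in counts of 5 or fewer, were named after their values were seen, and the 3 nearest genes were taken for the 2 members of largest range. Members and lists were chosen with earlier results of these data known.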

Additional observations from a re-analysis of the deposited data

Results flagged for a closer look

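Differences of opposite sign under the same contrast are given here for members, by their brightest probe sets. The share of all genes with such differences was not counted, so these values are no result particular to iron genes. The difference between opposite values was not tested, and each contrast holds 1 array per group. Captopril minus water was −1.28 in GN and 0.51 in saline mice for Cp. It was −0.84 and 1.11 for Heph, −0.78 and 0.75 for Slc40a1, 0.71 and −0.47 for Slc11a2, and 0.11 and −0.07 for Tfrc. GN minus saline was −0.05 on captopril and 1.89 on water for Heph, 0.15 and −1.04 for Slc11a2, −0.20 and 0.92 for Aco1, −0.09 and 0.18 for Hmox1, and −0.03 and 0.17 for Fth1. Those of Tfrc, Hmox1 and Fth1 were all under 1.5-fold. The array labelled GN+Water, with sex markers against its label, is in all of the values for captopril in GN, Saline+Water in all of those for captopril in saline mice, and both in those for GN on water.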

How the results depend on the processing

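No paired analysis was possible because each group had 1 array. Rescaling by median centring, quantile normalisation or cyclic loess moved no count of members by over 1.5 times, and gave 0.62 to 0.63 for Cp on GN+Captopril minus Saline+Captopril. Quantile normalisation gave 5 list genes lower in place of 3 for captopril in saline mice. Arrays were exchanged for member counts and member differences between GN and saline, and not for list genes. Members higher on GN+Captopril than Saline+Captopril were 1, but 3 with the array labelled GN+Water in place of GN+Captopril and 4 with Saline+Water in place of Saline+Captopril. The 1 member lower on the array labelled GN+Water than Saline+Water became 0 with either array exchanged, 0 with averaged probe sets and 2 without shared ones. Averaging probe sets also gave 0 members higher in the captopril pair, where Cp was at 0.58, just under the threshold. It gave 0 in place of 1 member higher for captopril in GN, 1 in place of 3 for captopril in saline mice, and 0 in place of 1 whose signed GN difference was higher on captopril. Among list genes it gave 4 in place of 7 lower on the array labelled GN+Water than Saline+Water, 2 in place of 1 higher for captopril in GN and 0 in place of 3 lower for captopril in saline mice. Without shared probe sets 1 in place of 0 members was lower for captopril in saline mice, and 2 in place of 1 had a higher signed GN difference on captopril. A 2-fold threshold left 0 members higher in the captopril pair, and 0 higher and 1 lower for captopril in GN; of the list it left 2 higher and 1 lower on the array labelled GN+Water than Saline+Water, 0 lower for captopril in GN, and 0 higher and 0 lower for captopril in saline mice. The 60th percentile filter left 1 list gene lower for captopril in GN. Aco1 on the array labelled GN+Water minus Saline+Water reversed to −0.32 with Saline+Captopril as baseline and to −0.62 without shared probe sets, and captopril in saline mice to −0.20 without them, by its other probe set. Without shared probe sets Cp was at 1.45 in place of 2.44 on the array labelled GN+Water minus Saline+Water, and at −0.68 in place of 0.51 for captopril in saline mice. With 1 array per group the number of arrays limits every value, and Heph on Saline+Water was close to the negative-control limit.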
